A study of Mus musculus with 5 samples.

Results

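The homeodomain and paired transcription factor genes described here are the 101 protein-coding genes, of 22380 in the NCBIM37 annotation of the mouse genome, whose symbols place them in the *Hoxb*, *Hoxc*, *Hoxd*, *Pax*, *Lhx*, *Nkx*, *Dlx*, *Irx*, *Meis*, *Msx*, *Otx*, *Emx*, *Gbx* and *Pou* families or in the family of *Six3*, with *Pax6* and *Pou5f1* left out. They were chosen by name and not by any measured value. Binding of *Paupar*, a long non-coding RNA, to chromatin was mapped by CHART-Seq, in which biotinylated antisense oligonucleotides pull an RNA out of crosslinked chromatin and the DNA that comes down with it is sequenced. All libraries came from N2A (neuro 2A), an established mouse neuroblastoma line, and comprised 2 pull-downs of the endogenous *Paupar* transcript, 2 pull-downs with a control oligonucleotide of *LacZ* sequence and 1 library of input DNA. The deposited result is a single list of 2849 peaks, each with a position on mm9 (the assembly also called NCBIM37) and a score, whose unit the sources used here do not state and which serves below only to rank peaks. Values per library, replicate error and sequencing depth are therefore unknown, and the list says nothing of whether a gene is expressed in N2A cells, an established tumour line and no developing tissue.

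Homeodomain proteins bind DNA through a helix that sits in the major groove and reads short sites rich in A and T. The PAX proteins carry a paired domain, with or without a homeodomain, and the LHX and POU proteins add a LIM or POU-specific domain to it, while the *Six3* family has a domain of its own beside it. In the developing nervous system these factors set regional and neuronal identity, and their genes often lie in large stretches of non-coding DNA with enhancers far from the gene start. A peak was assigned to a gene when its midpoint lay in the regulatory domain of the gene, a span that covers 5 kb before and 1 kb after the gene start and reaches on both sides to the next such interval, or 1 Mb at most.

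Of the 101 genes, 17 had at least 1 peak in their regulatory domain (16.8%), against 3686 of all 22380 protein-coding genes (16.5%). The share was thus near the background. The 17 genes were *Pax7*, *Pax8*, *Lhx3*, *Lhx4*, *Lhx5*, *Pou2f1*, *Pou4f2*, *Pou6f1*, *Six3*, *Nkx3-2*, *Nkx6-2*, *Dlx2*, *Dlx6*, *Irx3*, *Meis1*, *Meis2* and *Hoxc4*. Together their domains held 25 peaks, and each of the 25 also lay in the domain of a neighbouring gene that is no member of these families. Neighbouring domains overlap by their definition, and 2415 of all 2849 peaks likewise lay in 2 domains. No gene of the 101 had a peak in its own promoter region.

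The sequences under the peaks are shown first, because the peaks of highest score among these genes shared a property of sequence. The list of sequences begins with the oligonucleotides used to capture *Paupar*, each 24 nt long and printed 5′ to 3′, against which the peaks were later searched.
PauparCHART254: ggcttaagtccacccctggattcg
PauparCHART428: gcctggaactagatcaaggcagag
PauparCHART2041: ctctcagaaactgcgatacaaaag
PauparCHART2067: gaggcctagtcaaaatatctccac

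The peaks with the highest score at *Pax8*, *Irx3*, *Pax7* and *Six3*, and 1 of the peaks at *Pou4f2*, held tandem repeats of the hexamer CTGCTC or of the triplet GAT. The stretch of 150 bases that was richest in them is given for *Pax8*, *Irx3*, *Six3* and *Pou4f2*, read from the plus strand of mm9. Capitals mark runs of at least 12 bases of repeated CTGCTC or of at least 9 bases of repeated GAT, in any phase and on either strand. Lower-case letters lie outside such runs, and where runs in different phases meet or overlap, as throughout the stretch at *Pax8*, all letters are in capitals although the repeat is interrupted.
*Pax8*, chr2:24489885-24490034: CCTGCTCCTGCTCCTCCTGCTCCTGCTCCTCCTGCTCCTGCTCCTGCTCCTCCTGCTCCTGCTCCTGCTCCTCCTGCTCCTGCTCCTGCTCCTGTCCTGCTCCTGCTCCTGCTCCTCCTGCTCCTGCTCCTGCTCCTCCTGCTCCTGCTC
*Irx3*, chr8:93938520-93938669: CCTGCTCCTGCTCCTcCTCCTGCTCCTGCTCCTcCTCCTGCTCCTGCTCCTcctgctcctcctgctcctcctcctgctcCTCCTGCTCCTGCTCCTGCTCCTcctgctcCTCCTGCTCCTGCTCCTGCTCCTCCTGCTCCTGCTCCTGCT
*Six3*, chr17:85755394-85755543: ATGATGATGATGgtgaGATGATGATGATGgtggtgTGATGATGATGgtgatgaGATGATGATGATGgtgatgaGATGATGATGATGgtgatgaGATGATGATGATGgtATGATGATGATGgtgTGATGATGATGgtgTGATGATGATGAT
*Pou4f2*, chr8:80747880-80748029: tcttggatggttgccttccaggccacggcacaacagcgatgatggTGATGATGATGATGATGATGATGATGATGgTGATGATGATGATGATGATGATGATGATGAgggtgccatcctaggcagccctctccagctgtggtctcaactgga

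The wide peaks at *Lhx5* and *Nkx6-2* held tandem repeats of longer units with no such run. Capitals and lower case alternate here by the length of the unit, 38 bases at *Lhx5* and 25 bases at *Nkx6-2*. From the end of the last block of capitals at *Nkx6-2* a copy is shortened, and the case no longer follows the units.
*Lhx5*, chr5:120793638-120793787: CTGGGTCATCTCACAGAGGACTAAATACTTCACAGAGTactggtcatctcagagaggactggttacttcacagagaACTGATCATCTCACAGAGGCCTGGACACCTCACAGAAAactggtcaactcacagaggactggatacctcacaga
*Nkx6-2*, chr7:146621575-146621724: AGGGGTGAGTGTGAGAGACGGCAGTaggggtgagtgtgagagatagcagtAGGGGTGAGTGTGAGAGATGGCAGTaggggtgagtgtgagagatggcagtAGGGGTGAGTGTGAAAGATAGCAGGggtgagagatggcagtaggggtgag

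For contrast, the narrow peaks at *Lhx4*, *Dlx2* and *Pou6f1* are given whole on the plus strand, as examples without tandem repeats close to their genes. Capitals mark the motifs CAAGTG, found in some NKX sites, and TAATCC, the core bound by OTX proteins, on either strand, and the *Lhx4* peak held none of the 6 motifs searched.
*Lhx4*, chr1:157560423-157560657: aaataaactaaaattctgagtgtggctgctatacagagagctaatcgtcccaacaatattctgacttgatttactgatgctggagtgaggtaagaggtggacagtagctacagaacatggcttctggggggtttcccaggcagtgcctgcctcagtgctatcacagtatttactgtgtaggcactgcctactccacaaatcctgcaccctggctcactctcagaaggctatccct
*Dlx2*, chr2:71414402-71414620: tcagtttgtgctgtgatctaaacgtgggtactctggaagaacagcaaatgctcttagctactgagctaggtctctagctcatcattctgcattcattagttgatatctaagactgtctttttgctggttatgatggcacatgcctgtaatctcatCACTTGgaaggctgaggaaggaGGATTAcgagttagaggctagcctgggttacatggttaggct
*Pou6f1*, chr15:100440882-100441068: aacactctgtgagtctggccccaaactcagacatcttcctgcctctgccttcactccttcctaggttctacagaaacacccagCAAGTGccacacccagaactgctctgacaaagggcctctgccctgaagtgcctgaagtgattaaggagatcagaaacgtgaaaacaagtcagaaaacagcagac

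The *Pax* genes, which act in eye, muscle, neural tube, kidney and thyroid development, had 4 peaks at 2 of 8 genes. *Pax8* (ENSMUSG00000026976), a regulator of thyroid and kidney development, had 3 peaks, all upstream of its start. The peak at chr2:24488039-24490376 was 2338 bp wide, with a score of 52.03 that ranked 67 among the 2849 peaks, and its midpoint lay 158088 bp upstream in an intron of *Cacna1b*, a neuronal calcium channel gene. A second peak of 833 bp lay beside it, with its midpoint 156203 bp upstream and a score of 8.94, and a peak of 481 bp with a score of 8.52 lay 100302 bp upstream between genes. The 3 peaks at *Pax8* thus included the highest score among all 25 and a pair of scores below the median of the list, which was 12.69. *Pax7* (ENSMUSG00000028736), which marks muscle progenitors and dorsal neural cells, had 1 peak at chr4:139284266-139285917, 1652 bp wide with a score of 44.79 (rank 98), 104354 bp downstream of its start and nearer to *Tas1r2*, a taste receptor gene.

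The LIM homeobox genes, which specify motor neurons, interneurons and the pituitary, had 3 peaks at 3 of 8 genes. At *Lhx4* (ENSMUSG00000026468), which acts in pituitary development, the peak at chr1:157560423-157560657 was 235 bp wide, had a score of 21.91 (rank 521) and lay in an intron of the gene itself, 28617 bp from its start. The peak of *Lhx3* (ENSMUSG00000026934), the paralogue of *Lhx4*, was 1317 bp wide with a score of 12.38 and lay 45160 bp downstream of the start, nearer to *Nacc2*. *Lhx5* (ENSMUSG00000029595), a forebrain regulator, had a peak of 3150 bp, among the widest of the 25, with a score of 9.58, which lay 89384 bp upstream at chr5:120790937-120794086. The order by width was therefore not the order by score in this family.

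The *Pou* genes had 4 peaks at 3 of 13 genes. *Pou4f2* (ENSMUSG00000031688), which is needed by retinal ganglion cells, had 2 peaks, both in introns of *Ttc29*. The first was 631 bp wide with a score of 16.82 and lay 212731 bp downstream, and the second was 368 bp wide with a score of 15.24 and lay 151148 bp downstream. *Pou2f1* (ENSMUSG00000026565), a widely expressed octamer-binding factor, had a peak of 586 bp with a score of 14.27, 153834 bp downstream in an intron of *Cd247*, which encodes a T cell receptor chain. *Pou6f1* (ENSMUSG00000009739), expressed in brain, had the narrowest of the 25 peaks, 187 bp with a score of 9.31, at 10560 bp upstream of its start and 5094 bp from that of *Dazap2*. All 4 scores lay between 9.31 and 16.82, so none of the *Pou* peaks was among the 100 of highest score.

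Of the 6 genes of the *Six3* family, whose products work with EYA and DACH proteins in eye and forebrain, *Six3* (ENSMUSG00000038805) alone had peaks in its domain. All 3 lay upstream, at 257577, 230195 and 13336 bp from the start. Their scores were 35.39, 9.67 and 7.39, and their widths 742, 881 and 480 bp. The peak of highest score, at chr17:85755001-85755742, ranked 169, and the one nearest to the gene had the lowest score of the 3.

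The *Nkx* genes, which pattern the ventral neural tube, heart and skeleton, had 3 peaks at 2 of 14 genes. *Nkx3-2* (ENSMUSG00000049691), a regulator of cartilage and spleen, had a peak on each side of its start, at 10000 bp upstream and 13822 bp downstream. The upstream peak was the nearest of all 25 to a start of these genes, with a width of 611 bp and a score of 11.90, and the downstream one had a width of 672 bp and the lowest score of the 25, 6.36. *Nkx6-2* (ENSMUSG00000041309), which acts in ventral neural progenitors and oligodendrocytes, had a peak of 1421 bp with a score of 13.72, at 146411 bp downstream in an intron of *Inpp5a*, whose start was nearer.

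The *Dlx* genes, which drive the formation of forebrain interneurons and the jaw, had 2 peaks at 2 of 6 genes. The peak of *Dlx2* (ENSMUSG00000023391) was 219 bp wide with a score of 11.07 and lay 29700 bp upstream. The peak of *Dlx6* (ENSMUSG00000029754) was 313 bp wide with a score of 17.57 and lay 202581 bp upstream, nearer to *Shfm1*. Both were narrow, and both lay between genes.

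Among the TALE homeobox genes, 1 of 6 *Irx* genes and 2 of 3 *Meis* genes had a peak. *Irx3* (ENSMUSG00000031734), a patterning gene of the neural tube, had 2 peaks in introns of *Fto*, its neighbour, at 388272 and 420922 bp downstream of its own start. The first, at chr8:93935502-93939061, was with 3560 bp the widest of the 25, and its score of 51.84 ranked 68, next to that of *Pax8*. The second was 660 bp wide with a score of 9.15. *Meis2* (ENSMUSG00000027210), a HOX cofactor, had a peak of 235 bp in an intron of its own, 152127 bp downstream with a score of 10.48, and a peak of 504 bp with a score of 9.75 at 53780 bp upstream. *Meis1* (ENSMUSG00000020160), its paralogue, had a peak of 2345 bp with a score of 14.31 at 285498 bp upstream, farther than that of any other upstream peak among these genes.

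The *Hox* genes had 1 peak in their domains. *Hoxc4* (ENSMUSG00000075394), at the edge of its cluster, was the 1 gene of 28 in the *Hoxb*, *Hoxc* and *Hoxd* clusters with a peak, which was 193 bp wide, had a score of 9.08 and lay 122358 bp downstream in the non-coding gene *D930007P13Rik*, nearer to *Smug1*. The domains of the 28 genes had a median length of 15.9 kb and covered 0.72 Mb in all. This 1 peak made 1.4 peaks per Mb, against 1.12 in the domains of all protein-coding genes. The share of the 28 with a peak was 3.57%, against 4.61% of all genes with domains up to 40.7 kb, though some of the 28 domains were longer. The count was thus not below the background for domains of such length. The peak nearest to any *Hoxb* gene start was 392.9 kb away, and for *Hoxd* it was 894.9 kb. The *Msx*, *Otx*, *Emx* and *Gbx* genes had no peak in their domains. They are only 9 in all, and 16.5% of all protein-coding genes had a peak.

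**Figure D1:**
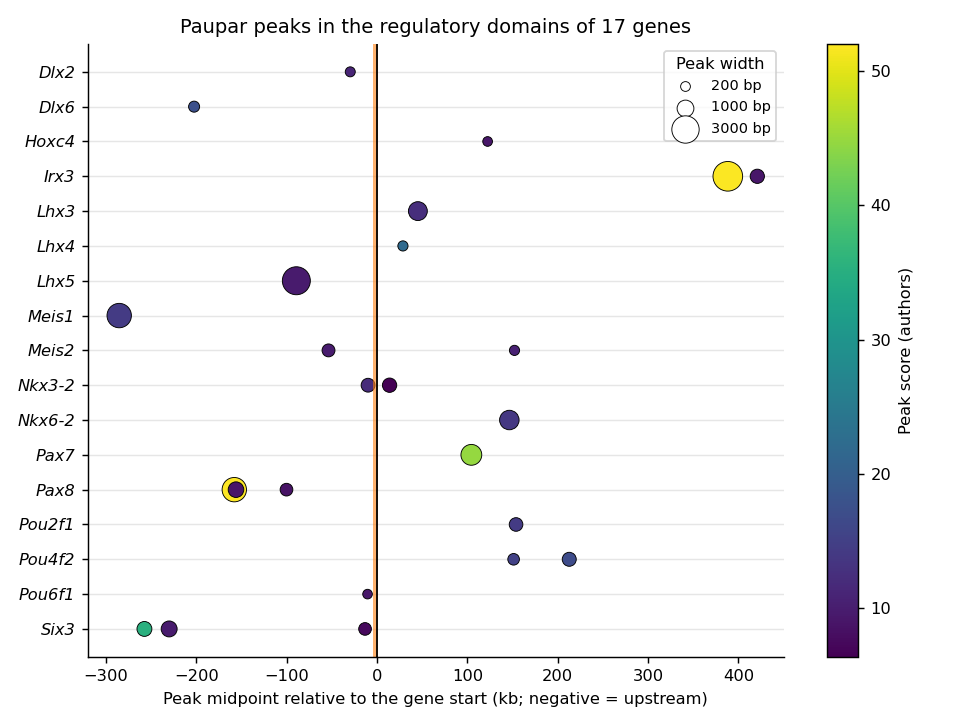
Each circle is 1 of the 25 peaks, placed by the distance of its midpoint from the start of the gene named on the left (kb, negative upstream), sized by its width and coloured by the authors' score. The orange band marks 5 kb before to 1 kb after the start, which holds none of the 25, and the nearest lies 10000 bp upstream of *Nkx3-2*. The brightest circles are those of *Pax8*, *Irx3* and *Pax7*.

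The peaks lay far from the gene starts. The distance from the midpoint to the start of the member gene had a median of 146.4 kb, with 13 peaks upstream and 12 downstream, whereas over all 5270 pairs of a gene and a peak in its domain the median was 64.3 kb. The distance exceeded 100 kb in 16 of the 25 pairs (64.0%), against 38.7% of all pairs. Distance is bounded by the length of the domain. The median domain was 143.0 kb for the 101 genes and 89.6 kb for all genes, so the distances cannot be read apart from length. None of the 25 lay within 5 kb of the start of its gene, a range that held 10.2% of all pairs. Of all 22380 genes, 383 (1.71%) had a midpoint in the span from 5 kb before to 1 kb after the start, and none of the 101 did, where the same share would give fewer than 2 genes. The midpoints of 12 peaks lay between genes (48.0%, against 49.8% of all peaks). Another 12 lay in introns of coding genes (48.0%, against 43.8%) and 1 in a non-coding gene. Only the peaks in *Lhx4* and *Meis2* lay inside the gene to which they were assigned, and the other 10 intronic peaks lay in *Fto*, *Cacna1b*, *Ttc29*, *Inpp5a*, *Cd247* and *1700106N22Rik*.

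Which gene a distal peak acts on cannot be read from its position. The member gene was the nearest protein-coding gene for 12 of the 25 peaks. Each of the 25 also lay in the domain of a neighbouring gene, so either gene could be the nearer. The same count was not made for other genes, so the 12 peaks do not set these genes apart. When each peak was given to the nearest start alone, 8 of the 101 genes had a peak (7.92%), against 2226 of all genes (9.95%), and these were *Dlx2*, *Lhx4*, *Lhx5*, *Meis1*, *Meis2*, *Nkx3-2*, *Pax8* and *Six3*. When every gene with a midpoint within 100 kb of its start was counted, whichever genes lay between, 17 genes did so again (16.8%), against 5763 of all genes (25.8%), but 9 of them were different. The 9 genes gained were *Dlx1*, *Lhx6*, *Pax4*, *Pou2f2*, *Pou2f3*, *Pou3f1*, *Pou3f3*, *Six2* and *Six5*, of which *Pou3f3* was the closest to a peak, at 36.9 kb. The 9 lost had their peaks farther away, among them *Pax8*, *Pax7* and *Irx3*.

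The length of the domains moved with the result. The median domain of the 101 genes was 143.0 kb long, that of all protein-coding genes 89.6 kb, that of the 17 genes with a peak 297.4 kb and that of the 84 without one 111.4 kb. The genes were therefore split into 4 classes of domain length, each with as many of all genes. In the class of shortest domains, up to 40.7 kb, 0 of 28 members had a peak, against 4.61% of all genes. In the next, up to 89.6 kb, 1 of 10 had one, against 9.31%, and in the class after that, up to 213.7 kb, 4 of 22 did, against 18.2%. In the class of longest domains, 12 of 41 members had a peak (29.3%), against 33.7% of all genes. The domains of the 101 genes covered 25.86 Mb with 0.967 peaks per Mb, and those of all genes had 1.12 peaks per Mb. Large domains without any peak included those of *Irx1* (1490.6 kb), *Pou3f4* (1291.1 kb) and *Pou3f2* (1129.8 kb), the last 2 being brain POU genes. *Pou3f4* lies on chromosome X, which held only 32 of all peaks (1.12%). The members were unevenly placed on the chromosomes: chromosome 2 held 19 of the 101 genes and 7 of the 25 peaks, while it held 9.41% of all peaks, and chromosome 8 held 5 genes and 4 peaks, while it held 10.2% of all peaks. On chromosome 2, 4 of the 19 members had a peak (21.1%), against 19.3% of all genes there, with 1.98 against 1.52 peaks per Mb. On chromosome 8, 2 of the 5 members had one (40.0%), against 28.2% of all genes there, with 2.08 against 2.28 peaks per Mb.

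**Figure D2:**
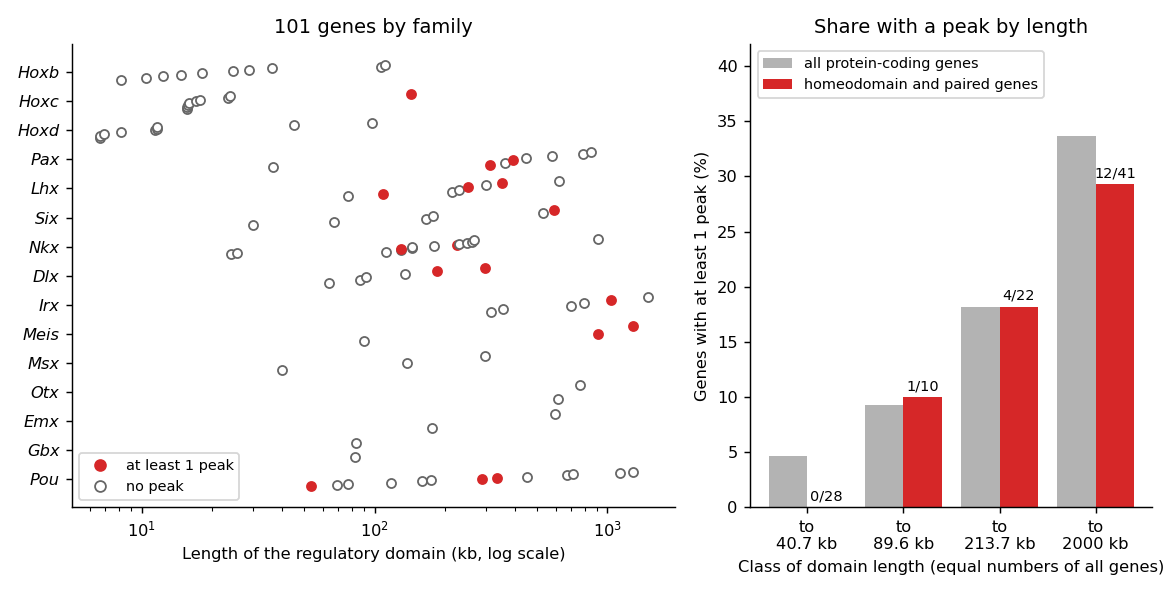
On the left, each point is 1 of the 101 genes by family and by the length of its regulatory domain (kb, log scale), filled where the domain held at least 1 peak. On the right, bars give the percentage of genes with a peak in each class of domain length, grey for all protein-coding genes and red for the homeodomain and paired genes, with their counts above. Both rise with length, to 33.7% and 29.3% in the last class.

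The 25 peaks resembled the whole list in score and width. Their scores ranged from 6.36 to 52.03 with a median of 11.9, against a median of 12.69 for all peaks, and their median width was 631 bp, against 556 bp. Wide peaks of over 1 kb made up 7 of the 25 (28.0%), at *Irx3*, *Lhx5*, *Meis1*, *Pax8*, *Pax7*, *Nkx6-2* and *Lhx3*, against 17.8% of the whole list. The GC content had a median of 48.2%, against 48.1% for all peaks. Only the pair at *Pax8* lay within 10 kb of another peak (8.0% of the 25, against 13.0% of the whole list).

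Among the 25, the peaks of highest score held tandem repeats. A peak was said to hold an internal tandem repeat when 150 bases of it matched the sequence shifted by 7 to 100 bases at 70% or more of their positions, a measure chosen after these sequences had been seen. By this measure 6 of the 25 peaks held one (24%, 95% Wilson interval 11.5 to 43.4), against 402 of all 2849 peaks (14.1%). In the flanking regions of the same width on both sides of the 25 peaks the share was 8 of 50 (16%), and in the flanks of all peaks it was 8.62%. The identity was 94.0% at *Irx3*, 92.0% at *Pax8*, 82.7% at *Nkx6-2*, 80.7% at *Pax7*, 80% at *Lhx5* and 77.3% at *Six3*. The 4 peaks of highest score among the 25, at *Pax8*, *Irx3*, *Pax7* and *Six3*, all belonged to these 6. The median score of the 6 was 40.09 and that of the 19 others 10.48. The whole list had the same pattern, with a median score of 21.75 for peaks with an internal repeat and 12.02 for those without one. The 6 were also wider, with a median width of 1995 bp against 504 bp for the 19. In the whole list the median width was 1131 bp with an internal repeat and 518 bp without. A wide peak offers more stretches of 150 bases, so repeat and score cannot be read apart from width. Of the 100 peaks of highest score in the whole list, 60 held such a repeat.

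Runs of CTGCTC lay in the peaks of *Pax8* and *Irx3* alone among the 25. The *Pax8* peak held 23 of them, covering 471 bases or 20.1% of its width, the longest of 80 bases, which lies before the stretch printed above. The *Irx3* peak held 28, covering 472 bases or 13.3% of its width, the longest of 23 bases. Runs of GAT lay in the peaks of *Pax7* (17 runs, 197 bases), *Six3* (9 runs, 113 bases) and *Pou4f2* (2 runs, 59 bases), where they covered 11.9%, 15.2% and 9.4% of the width. Together 5 of the 25 peaks held a run of either kind (20%, interval 8.86 to 39.1), against 12.5% of all peaks, 6% of the flanks of the 25 and 3.88% of the flanks of all peaks. In the 100 peaks of highest score of the list the share was 32.0%, and all 3 member peaks among them, at *Pax8*, *Irx3* and *Pax7*, had one.

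Most short runs in the domains lay outside the peaks. The domains of the 101 genes held 126 runs of CTGCTC, of which 52 touched a peak, although peaks made up 0.0952% of these domains. Of the 15 runs of at least 18 bases, 13 touched a peak, and all of these lay in 2 peaks, those of *Pax8* and *Irx3*. The runs in a peak are neighbours in 1 repeat and are not independent. For GAT, 28 of 993 runs lay in a peak, and of the 11 runs of at least 24 bases 2 did, both at *Pou4f2*. The pull-downs were compared with input DNA and with the *LacZ* control by the authors before the list was made. The part that mapping of short reads to repeats played in these peaks was not tested, since the list holds no reads.

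**Figure D3:**
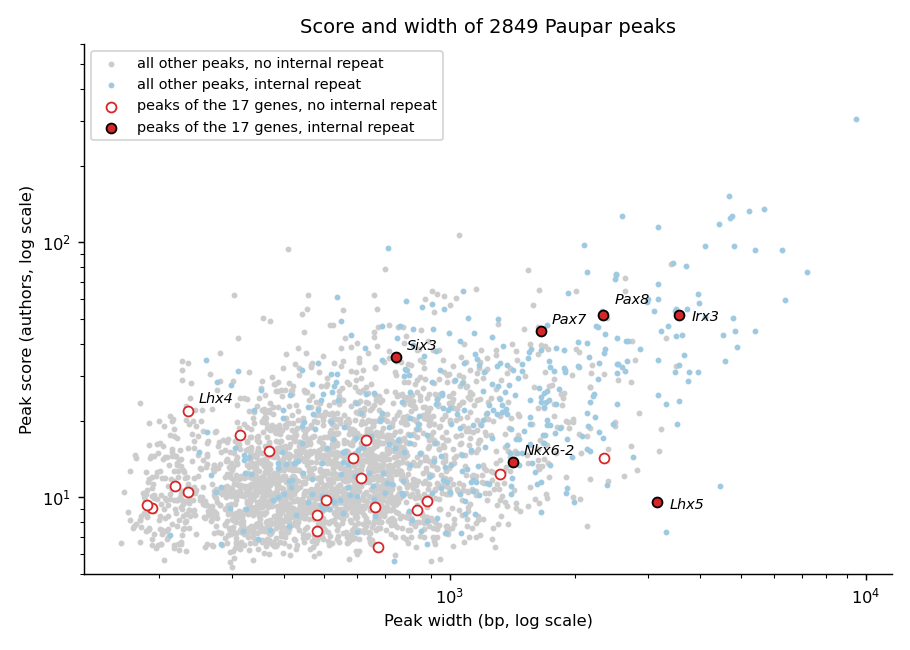
Each point is a peak by its width (bp, log scale) and the authors' score (log scale): grey without and light blue with an internal tandem repeat for the whole list, open red circles for the 19 peaks of these genes without one and filled red circles for the 6 with one. *Pax8*, *Irx3*, *Pax7* and *Six3* stand above all open red circles, while *Nkx6-2* and *Lhx5* lie among them in score.

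The sequences were then compared with the capture oligonucleotides. An exact match to 1 or more of the 4 oligonucleotides, 10 nt or longer, was present in 7 of the 25 peaks (28%, interval 14.3 to 47.6), against 700 of all 2849 peaks (24.6%). The share was 10% in the flanks of the 25 and 10.3% in the flanks of all peaks. It was 8% when 12 nt were required and 16% in the central 300 bp of each peak. For the *LacZ* oligonucleotide, 1 sequence against 4, there was no such match in the 25 peaks. Its share was 0.281% in all peaks and 0.386% in the flanks of all peaks. With shares this low, its absence from 25 peaks cannot serve as a control. The longest matches were 12 nt at *Meis1* and *Lhx5*, both to PauparCHART2067, and 11 nt at *Six3*, to PauparCHART2041, in the peak nearest to that gene. They are shown in capitals, with 15 bases on each side, on the plus strand.
*Meis1*, chr11:19205506-19205547: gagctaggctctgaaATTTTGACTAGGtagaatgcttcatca
*Lhx5*, chr5:120792707-120792748: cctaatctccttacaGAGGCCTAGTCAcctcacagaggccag
*Six3*, chr17:85999650-85999690: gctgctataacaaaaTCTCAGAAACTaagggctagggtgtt

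At *Meis1* the match was on the minus strand, and at *Lhx5* and *Six3* on the plus strand. Matches of 10 nt were found in peaks of *Irx3*, *Pou4f2*, *Nkx3-2* and *Pax8*, the last in the peak of 481 bp. Of the 4 peaks of highest score, those of *Pax8*, *Pax7* and *Six3* had no match of 10 nt and that of *Irx3* had one of exactly 10 nt. The scores of the 7 peaks ranged from 7.39 to 51.84. Whether a match of this length captured DNA was not tested.

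The sites that these families are known to bind were searched in the same peaks as exact letters on both strands. TAATTA, the core of many LIM, paired and antennapedia-type homeodomains, was present in 4 of the 25 peaks (16%), in 22% of their flanks, in 12.2% of all peaks and in 17.5% of all flanks. The 4 were wide peaks, those of *Meis1*, *Lhx5*, *Pax8* and *Irx3*, and the sites of *Meis1* are printed with the core in capitals.
*Meis1*, chr11:19204521-19204560: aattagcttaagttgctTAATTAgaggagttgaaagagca
*Meis1*, chr11:19205249-19205288: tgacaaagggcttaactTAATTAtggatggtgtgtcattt

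ATGCAAAT, the octamer of POU proteins, was present in 1 peak, that of *Pax7* (4%, against 2.91% of all peaks), and in none of the peaks at *Pou* genes. TAATCC was present in 3 peaks (12%, against 19.8%), at *Dlx2*, *Nkx3-2* and *Pax8*. TGACAG, the core bound by MEIS proteins, was present in 10 (40%, against 38.6%), and in 44% of the flanks of these peaks and 36.7% of all flanks. CAAGTG was present in 13 (52%, interval 33.5 to 70), against 40% of the flanks of these peaks. Its share was 31% in all peaks and 32.5% in all flanks. TGATTGAT, bound by HOX with PBX, was present in none of the 25, and in 2.63% of all peaks. A match is a stretch of letters and not a binding site. For none of these motifs did the interval of the 25 peaks leave out the share in their own flanks. The interval for CAAGTG did leave out the shares in all peaks and in all flanks, but 6 motifs were searched and no test was run.

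**Figure D4:**
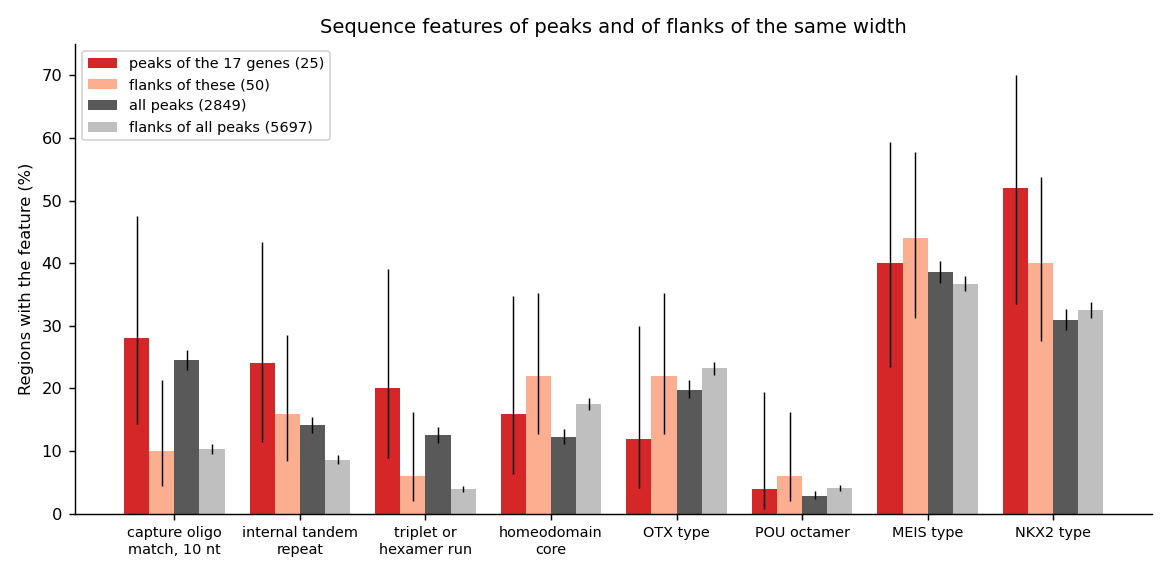
Bars give the percentage of regions that hold each sequence feature, in the 25 peaks of these genes (red), their 50 flanks of the same width (light red), all 2849 peaks (dark grey) and their 5697 flanks (light grey), with 95% Wilson intervals that cover counting error only. The red and dark grey bars of the capture oligonucleotide match stand at 28% and 24.6%, above 10% and 10.3% in the flanks, while the bars for the motifs of homeodomain proteins overlap between peaks and flanks of these genes.

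Other homeobox genes and the protein partners of these families were counted in the same way. Of 78 annotated genes for other homeodomain proteins, 24 had a peak in their domain (30.8%, against 16.5% of all genes), with a median domain of 200.5 kb. *Isl1*, a LIM homeobox gene of motor neurons, had 3 peaks, the nearest 2820 bp upstream of its start with a score of 16.37, and *Alx4*, which acts in skull and limb, had 1 peak at 2234 bp downstream with a score of 6.65. *Hlx* had 4 peaks with a top score of 62.29, and *Zfhx3* had 4 with a top score of 13.77. Of 22 partners, 9 had a peak (40.9%), with a median domain of 512.5 kb, among them *Pbx3*, a cofactor of HOX and MEIS, *Lmo1*, *Lmo3* and *Lmo4*, the LIM-only proteins that compete for LDB with LHX proteins, *Eya2* and *Eya4*, which bind proteins of the *Six3* family, and the corepressors *Tle3* and *Tle4*. *Lmo1* had a peak 3021 bp upstream with a score of 20.30, and *Eya4* had 3 peaks with a top score of 63.28. The *Pbx* and *Pknox* genes stand in both lists. Both lists had longer domains than the 101 genes, so their shares cannot be read apart from length.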

How the data were processed

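Per the labels and the methods of the study, genomic DNA from N2A cells was recovered by CHART with biotinylated oligonucleotides, eluted with RNase H and sequenced as paired ends. Reads were aligned to mm9 by the authors using bowtie, with only uniquely placed reads kept, and MACS2 served as peak caller. The list holds regions that passed a q value filter and were found with both kinds of background, the *LacZ* control and the input DNA. How the calls of the 2 pull-downs were joined is not given in the sources used here. The authors deposited 1 list with a score for each peak, and the score was used only to rank and filter. Unique mapping can lose reads in repeats, and no library had a value of its own here.

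Groups of libraries came from the labels, and since all 5 libraries enter 1 list, no comparison between them was made. No test was run: shares are set beside those of all genes, all peaks and flanking regions, and 95% Wilson intervals cover counting error only. Gene starts and gene models were those of the protein-coding genes of GENCODE vM1 on NCBIM37, the assembly that mm9 names, and 0 peaks reached past the end of a chromosome. Domains were extended to the neighbouring interval in the order of gene starts. Midpoints decided the place of a peak. Sequence was read from NCBIM37, and matches were exact and on both strands.

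The members, the gene lists and the motifs were chosen with earlier results of these data known. Named by rule were, in each family, the gene with the most peaks, the genes of the 10 peaks of highest score, those of peaks over 1 kb, those with 3 or more peaks and every *Hox* gene with a peak. *Pou6f1*, the genes of other lists, genes with large empty domains, the repeat measures and the stretches of sequence printed were chosen after their values were seen. Some gene names and 1 stretch of sequence are not reported here. The steps were tested on simulated data. The tools were samtools 1.23.1 and Python 3.11.15 with matplotlib 3.10.9, pysam 0.24.0, scipy 1.17.1, pandas 2.3.3 and numpy 2.4.6.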

Additional observations from a re-analysis of the deposited data

How the results depend on the processing

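The count of members with a peak was 17 when 1 base of overlap was enough, when peaks within 10 kb were counted once, when a covering interval stopped the extension or when every start within 100 kb was counted (5763 of all genes), and 14 (13.9%, against 12.7% of all genes) with a score of at least 10, which left 15 of the 25 peaks. It was 12 (11.9%, against 14.2%) with peaks of at most 1 kb. With domains of at most 100 kb it fell to 8 genes and 9 peaks (7.92%, against 11.9% of all genes), with the nearest start alone to 8 genes and 12 peaks (2226 of all genes), and with the interval next to the start alone to 0 genes and 0 peaks (383 of all genes). The share of these peaks with a capture match was 8% at 12 nt in place of 10 nt and 16% in the central 300 bp. With peaks of at most 1 kb, the share with TAATTA was 0% and that with an internal tandem repeat 5.56%. The other settings left each share of these peaks within its interval. The domain with a covering interval, the 100 kb distance and the settings for repeats were chosen after seeing the data. No paired analysis was possible because the list pools all libraries and carries no replicate numbers, and for the same reason no library could be left out. The depth behind each peak is unknown.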
